A study of Mus musculus with 4 samples.

Results

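The genes described here are 10 microcephaly centrosome genes, Aspm, Mcph1, Cdk5rap2, Cenpj, Wdr62, Stil, Cep152, Cep63, Cep135 and Nde1. They were taken by gene name from the 2 deposited tables, and all 10 were found among the 19844 genes listed in both tables. All 10 also passed the filter on low counts and were among the 16269 genes tested. The samples were 4 bulk RNA libraries of E16.5 cortex from C57BL/6 mouse embryos. In 2 of them (cKO replicates 1 and 2) the label gives H2A.Z.2, a variant of histone H2A, as conditionally knocked out, and 2 (WT replicates 1 and 4) are labelled wild type. The labels name neither the Cre line nor the deleted exons, nor do they tie each library to an embryo of its own. The p-values below therefore speak of the spread among libraries, which may be technical. The series compares the 2 genotypes; the question taken up here is whether the genes that build and orient the centrosome of dividing cortical progenitors differed between them.

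The centrosome is a pair of centrioles in a cloud of pericentriolar material that nucleates microtubules. In cortical progenitors it copies itself in each cell cycle and forms the poles of the mitotic spindle. Loss of the human counterparts of these genes causes primary microcephaly or a related disorder, in which too few neurons are made. The genes fall into roles: Cep63, Cep152, Stil, Cenpj and Cep135 build new centrioles, Cdk5rap2, Aspm, Wdr62 and Nde1 act in the pericentriolar material and at the spindle poles, and Mcph1 restrains chromosome condensation and acts in the response to DNA damage.

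Reads on genes came to between 16625181 and 17940659 in a library. The 10 genes had between 126 and 1622 reads in a library, which puts the counting error alone at 8.91% of the value for the lowest and 2.48% for the highest. Before any comparison, WT replicate 4 stood apart. Ribosomal-type reads (Gm23935, CT010467.1, Lars2) made up 0.0346% and 0.0480% of the libraries labelled cKO, against 0.0352% of WT replicate 1 and 0.383% of WT replicate 4. Dividing-cell genes were also high in WT replicate 4 (values below). H2afv, which encodes H2A.Z.2, had 128 and 127 CPM (reads scaled to library size, with TMM factors that trim extreme genes) in the libraries labelled cKO, against 136 and 222 CPM in WT replicates 1 and 4. The cKO labels were thus set apart from WT replicate 4 more than from WT replicate 1. The log2 differences of cKO replicates 1 and 2 were -0.80 and -0.80 from WT replicate 4, and -0.09 and -0.10 from WT replicate 1. Over both groups the log2 fold change was -0.49 (edgeR adjusted p = 0.956), and counts per gene do not show which exons were read. The fold changes of the 10 genes and the medians of the main lists are therefore given with and without WT replicate 4.

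All 10 genes had lower mean levels in the libraries labelled cKO than in WT, by log2 fold changes of -0.83 for Aspm to -0.06 for Cep63 with a median of -0.36. None passed the test. In edgeR's quasi-likelihood test 0 of 10 were past 5% FDR, where 0% of the 16269 genes were, with adjusted p-values of 0.956 to 0.969, and 0 of 10 had an unadjusted p below 0.05, where 1.67% of all genes did. Log2 fold changes below 0 were seen in 51.9% of all genes tested, whose median was -0.01. DESeq2 likewise called 0 of 10 at 5% FDR, where 0% of genes were called. In that tool Aspm and Nde1 had unadjusted p-values below 0.05 (0.0173 and 0.0409), as did 2.32% of all genes. In all 10 genes the highest of the 4 libraries was WT replicate 4, which was the highest library for 37.6% of all genes tested. The groups did not overlap, with both cKO libraries below both WT libraries, in 5 of the 10 genes (Aspm, Cdk5rap2, Cep152, Cep63 and Cep135), against 15.7% of all genes. The lowest library was cKO replicate 2 for 6 of the 10, as it was for 24.4% of all genes.

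**Figure D1:**
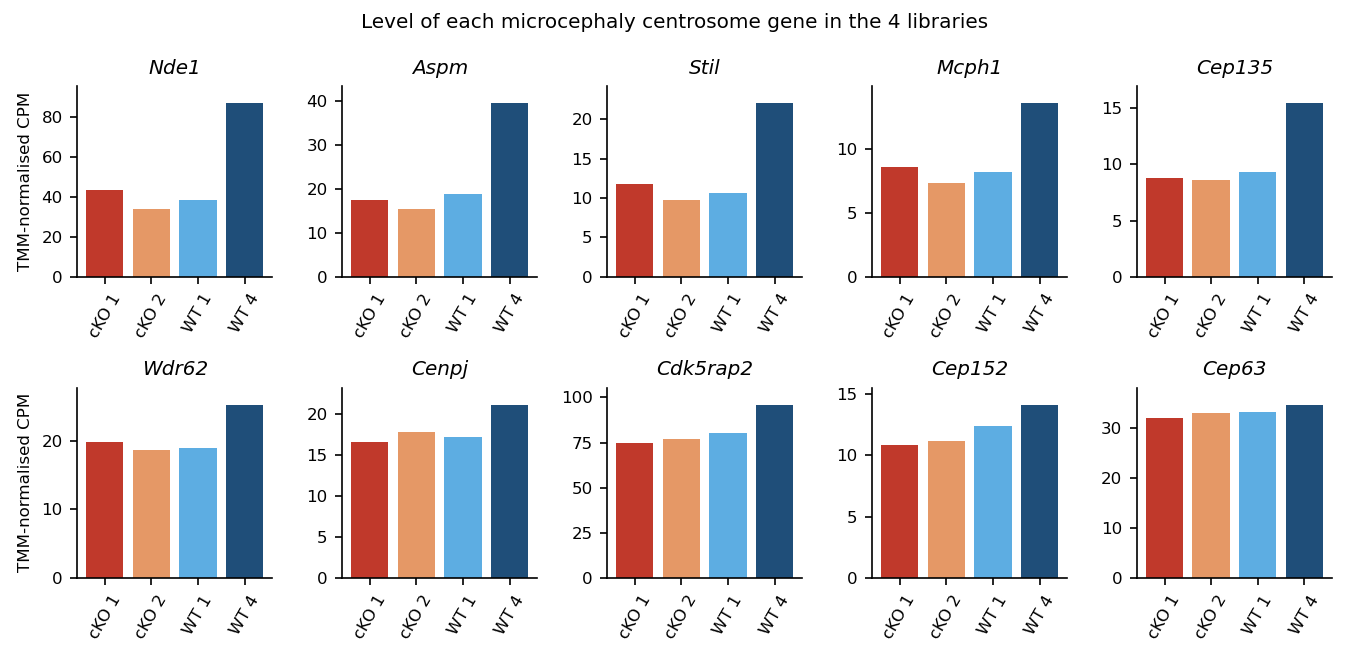
Bars give the TMM-normalised CPM of each gene in cKO replicates 1 and 2 and WT replicates 1 and 4, each bar 1 library and each panel with its own axis from 0. WT replicate 4 is the highest bar in all 10 panels, by 2.26 times WT replicate 1 for Nde1 and 1.04 times for Cep63.

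Among the genes that build centrioles, Stil and Cep135 had the largest fold changes and Cep63 the smallest with all 4 libraries. With WT replicate 4 left out the order was another one, with Cep152 at -0.16, Cep135 at -0.10, Cep63 at -0.03, Stil at 0.03 and Cenpj at 0.01. Stil, which with the kinase Plk4 starts the cartwheel of the new centriole, had 11.8 and 9.80 CPM in the libraries labelled cKO, against 10.6 and 22.0 CPM in WT replicates 1 and 4. The cKO values lay on both sides of WT replicate 1, so the groups overlapped, and the log2 fold change of -0.60 had a 95% confidence interval of -1.48 to 0.29. Cep135, which ties the cartwheel to the centriole wall, had 8.78 and 8.63 CPM in the cKO libraries against 9.35 and 15.4 CPM in WT (log2 fold change -0.51, SE 0.30). Both cKO libraries were close to each other and just below WT replicate 1. Cep152, a scaffold that brings Plk4 to the parent centriole, had 10.9 and 11.2 CPM in the cKO libraries against 12.4 and 14.1 CPM in WT (log2 fold change -0.27, SE 0.21). The groups did not overlap, and WT replicate 4 was 1.14 times as high as WT replicate 1.

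Cenpj, which lengthens centriole microtubules, had 16.6 and 17.8 CPM in the libraries labelled cKO, against 17.1 and 21.1 CPM in WT replicates 1 and 4. Here cKO replicate 2 lay above WT replicate 1, and the log2 fold change was -0.15 (SE 0.20). Cep63, the partner that places Cep152, had 31.8 and 33.0 CPM in the cKO libraries against 33.1 and 34.5 CPM in WT. These were the most even levels of the set: the log2 fold change of -0.06 had a 95% confidence interval of -0.43 to 0.30, so a fall to the size seen for Aspm lies outside it.

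At the spindle poles the set split further. Aspm, which binds microtubule minus ends at the poles and keeps the spindle oriented, had 17.4 and 15.3 CPM in the libraries labelled cKO, against 18.7 and 39.4 CPM in WT replicates 1 and 4. Both cKO libraries were below WT replicate 1, and WT replicate 4 stood far above the rest. The mean was 16.4 ± 1.49 CPM in cKO and 29.1 ± 14.6 CPM in WT (SD, n = 2 each). Its log2 fold change of -0.83, with an SE of 0.35 and an interval reaching from -1.67 to 0.02, was the largest of the 10 and had the smallest unadjusted p, 0.0540 (edgeR adjusted p = 0.956). Nde1, a regulator of the motor dynein and its partner Lis1, had 43.8 and 34.0 CPM in the cKO libraries against 38.5 and 87.1 CPM in WT. WT replicate 1 lay between the cKO libraries, and the means were 38.9 ± 6.92 CPM in cKO and 62.8 ± 34.4 CPM in WT (SD, n = 2 each). The log2 fold change of -0.69 had an SE of 0.37. Ndel1, the close paralog of Nde1 and chosen after its values were seen, had 68.0 and 62.1 CPM against 63.3 and 60.8 CPM in WT, and so was not high in WT replicate 4.

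Cdk5rap2, which anchors gamma-tubulin complexes in the pericentriolar material, had 74.6 and 76.8 CPM in the libraries labelled cKO, against 80.4 and 95.9 CPM in WT replicates 1 and 4. The groups did not overlap, and the log2 fold change was -0.22, within an interval of -0.56 to 0.12. Wdr62, a scaffold of the spindle pole, had 19.9 and 18.7 CPM in the cKO libraries against 19.0 and 25.2 CPM in WT (log2 fold change -0.20, SE 0.21), with the cKO values on both sides of WT replicate 1. Mcph1 had 8.61 and 7.35 CPM in the cKO libraries against 8.19 and 13.6 CPM in WT (log2 fold change -0.45, SE 0.31), and there too WT replicate 1 lay between the cKO libraries.

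For most of the genes the WT libraries differed from each other more than the genotypes did. On the log2 scale the excess of WT replicate 4 over WT replicate 1 was larger than the cKO against WT difference in 8 of the 10 genes, with Cep152 and Cep63 as the exceptions. The share of all genes tested for which this held was not counted. A difference of single libraries also varies more than a difference of group means, so the count is a description only. The excess separated the genes into a higher and a lower set, read off after the values were seen. Nde1, Aspm, Stil, Mcph1 and Cep135 were 2.26, 2.10, 2.08, 1.66 and 1.65 times as high in WT replicate 4 as in WT replicate 1, while Wdr62, Cenpj, Cdk5rap2, Cep152 and Cep63 were 1.33, 1.23, 1.19, 1.14 and 1.04 times as high. Both sets hold centriole and spindle pole genes. The cKO libraries were closer together, differing by at most 1.29-fold, for Nde1.

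Set against each WT library by itself, the cKO libraries gave different pictures. Relative to WT replicate 4, cKO replicate 1 was lower in all 10 genes with a median log2 difference of -0.51, and cKO replicate 2 was lower in all 10 with a median of -0.63. Both counts follow from WT replicate 4 being the highest library in all 10 genes, as it was for 37.6% of all genes. Relative to WT replicate 1, cKO replicate 1 was lower in 6 of 10 with a median of -0.05, where 50.5% of all genes were lower. Relative to that same library, cKO replicate 2 was lower in 9 of 10 with a median of -0.11, where 50.1% of all genes were lower. The comparisons share libraries and are single-library differences with no test.

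Without WT replicate 4, the edgeR fit left 6 of the 10 genes below 0, where 49.5% of all genes were, with a median log2 fold change of -0.03 and 0 of 10 past 5% FDR. Aspm kept the largest value, -0.19 (95% confidence interval -0.66 to 0.28), and Nde1, Stil, Wdr62 and Cenpj turned to 0.02, 0.03, 0.03 and 0.01. Without WT replicate 1, all 10 genes were below 0, where 49.6% of all genes were, the median was -0.57, and 3 of 10 passed 5% FDR as lower, where 5.59% of all genes did. These were Aspm at -1.26 (edgeR adjusted p = 0.00146), Nde1 at -1.16 (0.00106) and Stil at -1.03 (0.0125). In each of these fits a lone WT library has no spread of its own and is assumed to vary like the cKO libraries. Without cKO replicate 1, all 10 genes stayed below 0 (52.5% of all genes) with a median of -0.38, and 0 of 10 passed 5% FDR, as did 0.00592% of all genes.

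**Figure D2:**
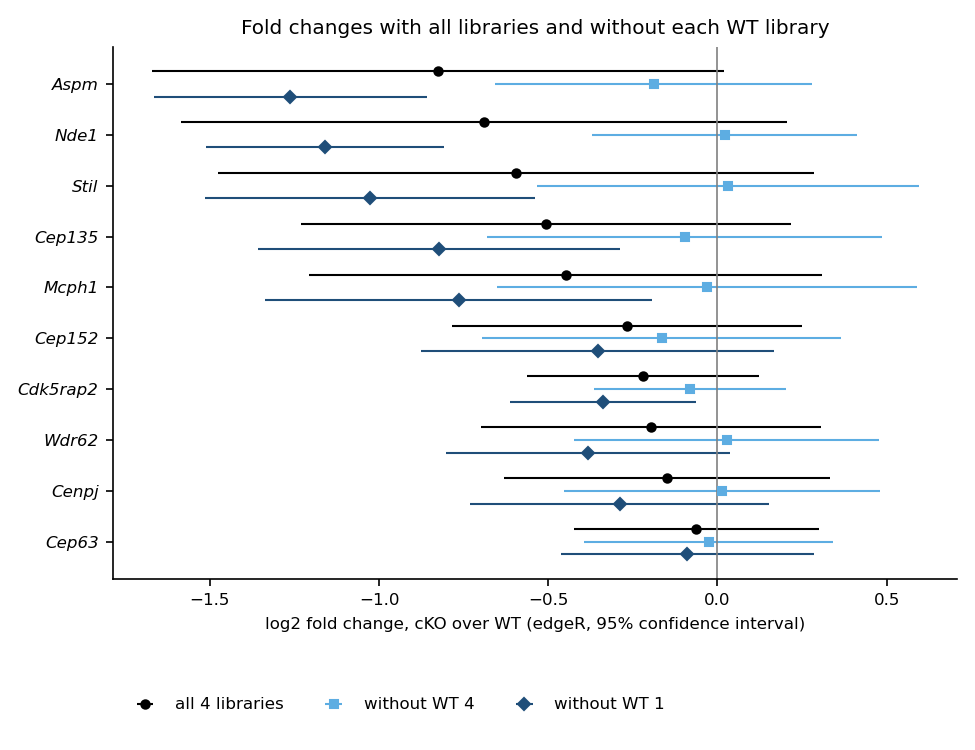
Points give edgeR log2 fold changes of cKO over WT with 95% confidence intervals for each gene, from all 4 libraries (black circles), without WT replicate 4 (light squares) and without WT replicate 1 (dark diamonds). With all libraries every interval includes 0. Without WT replicate 4 all values lie between -0.19 and 0.03, and without WT replicate 1 Aspm reaches -1.26.

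The 2 comparisons made by the authors set 1 cKO library against 1 WT library and differed in the same way. With WT replicate 4 as control for cKO replicate 1, in the authors' deposited table, all 10 genes had a log2 fold change below 0, as had 53.5% of genes, and 9 of the 10 were lower with an adjusted p below 0.05, as were 25.2% of all genes listed, and Cep63 was not (adjusted p = 0.0993). In the authors' deposited table with WT replicate 4, Aspm at a log2 fold change of -1.21 and Nde1 at -1.02 also passed the threshold of 1, as did 4.21% of genes. With WT replicate 1 as control for cKO replicate 2, in the authors' deposited table, 9 of the 10 genes were below 0, as were 59.1% of genes. In the authors' deposited table with WT replicate 1, Aspm alone of the 10 was lower with an adjusted p below 0.05 (log2 fold change -0.32, adjusted p = 0.0488), as were 8.26% of genes. There 0 of 10 passed the threshold of 1, as did 1.16% of genes, and Cenpj was at 0.02 in the authors' deposited table. These p-values compare 2 libraries and not the genotypes.

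Promoters of the genes are shown because the genes were high in the same library while differing in by how much. They span 250 bases before to 50 after the RefSeq start, on build GRCm38.p6, and 9 of the 10 genes had an entry, all but Mcph1. Aspm, Nde1 and Stil had the largest fold between the WT libraries, and Cep63 the smallest. Capitals mark matches on either strand to CCAAT, to the CHR element TTTGAA, known from genes read in G2 and mitosis, and to the E2F words TTTGGCGC, TTTCCCGC and TTTCGCGC, known from genes read at the start of S phase.
Aspm, chr1:139454523-139454822, plus strand: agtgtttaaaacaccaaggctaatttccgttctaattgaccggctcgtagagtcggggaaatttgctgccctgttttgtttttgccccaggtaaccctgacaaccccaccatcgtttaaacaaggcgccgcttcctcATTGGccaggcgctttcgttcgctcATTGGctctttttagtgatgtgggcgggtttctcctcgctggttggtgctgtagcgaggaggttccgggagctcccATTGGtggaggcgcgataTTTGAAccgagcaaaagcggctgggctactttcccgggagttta
Nde1, chr16:14163025-14163324, plus strand: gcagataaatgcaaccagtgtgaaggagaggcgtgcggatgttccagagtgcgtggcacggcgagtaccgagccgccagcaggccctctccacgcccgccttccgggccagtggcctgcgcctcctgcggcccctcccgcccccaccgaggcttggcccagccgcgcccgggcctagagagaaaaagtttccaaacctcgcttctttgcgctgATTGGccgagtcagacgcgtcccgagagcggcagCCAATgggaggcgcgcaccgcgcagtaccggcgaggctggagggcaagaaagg
Stil, chr4:114999868-115000167, plus strand: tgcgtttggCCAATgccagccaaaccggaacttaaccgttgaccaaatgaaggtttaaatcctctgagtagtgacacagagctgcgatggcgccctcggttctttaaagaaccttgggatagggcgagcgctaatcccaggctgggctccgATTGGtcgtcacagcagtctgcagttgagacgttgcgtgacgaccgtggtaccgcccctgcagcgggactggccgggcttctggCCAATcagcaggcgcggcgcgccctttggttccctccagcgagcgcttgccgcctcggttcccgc
Cep63, chr9:102626075-102626374, minus strand: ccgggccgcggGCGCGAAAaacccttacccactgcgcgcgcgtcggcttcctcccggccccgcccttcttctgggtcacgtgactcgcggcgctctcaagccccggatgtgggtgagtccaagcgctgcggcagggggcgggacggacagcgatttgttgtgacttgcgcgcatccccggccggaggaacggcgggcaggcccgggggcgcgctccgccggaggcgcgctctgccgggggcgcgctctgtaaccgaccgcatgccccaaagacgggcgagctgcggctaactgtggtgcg
The Aspm window held 3 CCAAT words, all on the minus strand, and a CHR that begins at base 7 after the start. The Nde1 window held 2 CCAAT words and the Stil window 3, while the Cep63 window held no CCAAT and 1 E2F word, far from the start. Over the 9 genes, CCAAT was in the window of 6 (Aspm, Cep135, Cep152, Nde1, Stil and Wdr62), where 37.4% of all 32851 windows held it. TTTGAA was in that of 2 (Aspm and Cdk5rap2), where 17.9% of windows held it, and 1 of the 3 E2F words in that of 2 (Wdr62 and Cep63), where 1.84% held any. Cenpj held none of these words. Of the 6 with CCAAT, Aspm, Nde1, Stil and Cep135 belonged to the higher set by WT excess, and Cep152 and Wdr62 to the lower. Mcph1, the other gene of the higher set, had no window, and Cenpj, Cdk5rap2 and Cep63 of the lower set held no CCAAT. By window, CCAAT was in 7 of 10, TTTGAA in 2 of 10 and an E2F word in 3 of 10, as Wdr62 had more than 1 window. No match overlapped another, and a match is a description of letters only.

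Levels of different genes were compared per length, as CPM per kb of merged exon. Nde1 was highest at 15.9 ± 7.64 CPM per kb (SD, n = 4 libraries), followed by Cdk5rap2 at 6.29 ± 0.739, and the ranges of these over the libraries did not overlap each other or that of the next gene. Cenpj at 3.73, Wdr62 at 3.60 and Cep63 at 3.45 CPM per kb did not differ beyond their spread. Stil followed at 2.34, Cep152 at 2.11, Aspm at 1.96, Cep135 at 1.47 and Mcph1 at 1.21 CPM per kb, each neighbour overlapping the next. Aspm was above Cep135, and Cep135 above Mcph1, in all 4 libraries. With the length of the longest transcript in place of merged exons, the mean of Mcph1 (2.02 CPM per kb) was above that of Cep135 (1.87), so their order depends on the length used. The order of Stil, Cep152 and Aspm depended on the library: Aspm had 1.51 and 1.32 CPM per kb in the libraries labelled cKO against 1.62 and 3.40 in WT replicates 1 and 4, and Cep152 had 1.88 and 1.94 against 2.15 and 2.45. In WT replicate 4 alone, Aspm exceeded Cep152.

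**Figure D3:**
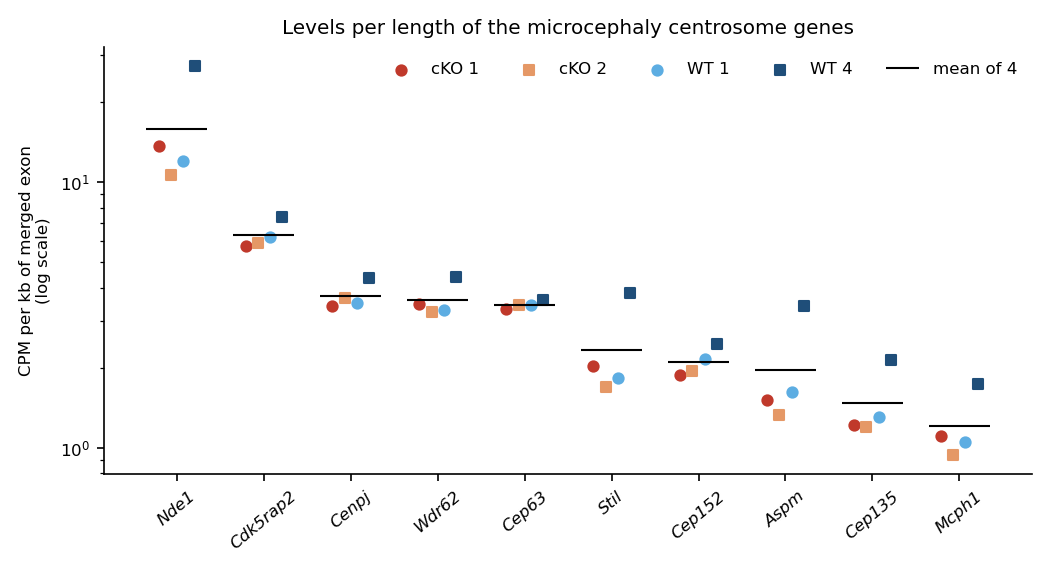
Points give CPM per kb of merged exon in each library on a log axis, with the mean of the 4 libraries as a bar, genes ordered by that mean. Nde1 (mean 15.9) and Cdk5rap2 (6.29) stand above the rest, and the square of WT replicate 4 is on top for every gene.

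Further lists of centrosome genes were counted in the same way. Of 20 further genes of centriole assembly, 19 were lower in the libraries labelled cKO and 1 higher, with a median log2 fold change of -0.23, and 18 were highest in WT replicate 4, as were 37.6% of all genes. Fold changes below 0 were seen in 51.9% of all genes. Plk4, the kinase that sets off centriole copying, had 10.1 and 11.3 CPM in the cKO libraries against 11.6 and 25.2 CPM in WT (log2 fold change -0.79, SE 0.37). Cep192, which recruits Plk4, had 23.8 and 23.6 CPM against 26.4 and 38.8 CPM in WT. Spice1, needed for centriole copying, and Ccp110, which caps centrioles, had log2 fold changes of -0.41 and -0.36. These 4 were chosen for the smallest p-values in their list, and all 4 had both cKO libraries below both WT libraries; in the whole list 9 of 20 genes did, and 15.7% of all genes. Sass6, the cartwheel protein that works with Stil and was chosen after its values were seen, had 3.19 and 3.15 CPM against 2.48 and 6.80 CPM in WT.

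Of 28 further genes of the pericentriolar material and satellites, 21 were lower and 7 higher, with a median of -0.13, and 20 were highest in WT replicate 4. For this list and the next, the shares of all genes were 51.9% lower and 37.6% highest in WT replicate 4. Nedd1, which brings gamma-tubulin to the centrosome, had 6.38 and 7.82 CPM in the libraries labelled cKO against 8.94 and 20.9 CPM in WT (log2 fold change -1.07, SE 0.42). Ninl, Haus6 and Odf2, which had the next smallest p-values, were at -0.38, -0.41 and -0.25. Of 19 further spindle pole and dynein genes, 16 were lower and 3 higher, with a median of -0.50, and 14 were highest in WT replicate 4. Gpsm2, which orients the spindle, had 20.9 and 20.6 CPM in the cKO libraries against 24.98 and 44.5 CPM in WT (log2 fold change -0.74, SE 0.28). Tacc3, Plk1 and Hmmr were at -0.65, -0.88 and -0.81.

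Of 25 primary microcephaly genes that act outside the centrosome, 20 were lower and 5 higher, with a median of -0.12, and 19 were highest in WT replicate 4. The kinetochore gene Knl1 had 5.20 and 6.01 CPM in the libraries labelled cKO against 6.23 and 18.3 CPM in WT (log2 fold change -1.13, SE 0.50), and the spindle checkpoint kinase gene Bub1 was at -1.13 (SE 0.43). Zfp335, a zinc finger factor, differed in the other direction, with 60.7 and 57.0 CPM in the cKO libraries against 48.5 and 47.3 CPM in WT (log2 fold change 0.30, SE 0.13). Trmt10a, a tRNA methyltransferase gene, was at -0.71. Of 10 centrosome and cilium genes also used by cells that no longer divide, 8 were lower and 2 higher, with a median of -0.08, and 5 were highest in WT replicate 4. The summed level of that list was 503 and 538 CPM in cKO against 522 and 467 CPM in WT, and so was lowest in WT replicate 4. Most of that sum was Fbf1, with 302 and 320 CPM in cKO against 306 and 236 CPM in WT. By the median of log2 CPM, less each gene's mean over the libraries, the list was highest in WT replicate 4. That median was -0.12 and 0.07 in cKO against 0.01 and 0.11 in WT. Ift80, Cep83, Tmem67 and Fbf1 were at -0.52, -0.37, -0.39 and 0.20. In these 5 lists 0 genes passed 5% FDR in edgeR, and 4 genes had an unadjusted p below 0.05 (Nedd1, Gpsm2, Tacc3 and Bub1), all lower. Over all genes tested, 0% passed 5% FDR and 1.67% had an unadjusted p below 0.05. Of those same genes, 51.9% were lower and 37.6% were highest in WT replicate 4.

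Without WT replicate 4 the medians of the 5 lists shrank to -0.05 for centriole assembly, -0.0047 for pericentriolar material, -0.03 for spindle pole genes, 0.02 for the other microcephaly genes and -0.02 for the genes of cells that no longer divide. The numbers lower were then 14 of 20, 14 of 28, 14 of 19, 10 of 25 and 6 of 10, where 49.5% of all genes were lower. Of the genes named above, Plk4, Nedd1, Gpsm2 and Knl1 were then at -0.12, -0.33, -0.26 and -0.15, and Zfp335 at 0.29.

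Markers of dividing cells were high in the same library as the 10 genes. Their part in the result was not tested. In bulk tissue a different share of dividing cells and a different RNA level per cell cannot be told apart, in whichever library they arise. All 10 mitosis markers were lower in the libraries labelled cKO, with a median log2 fold change of -0.73, and their summed level was 562 and 478 CPM in cKO against 574 and 1155 CPM in WT replicates 1 and 4. Fold changes below 0 were seen in 51.9% of all genes tested. Mki67 had 94.7 and 94.1 CPM against 102 and 201 CPM in WT, and Top2a 117 and 85.6 CPM against 114 and 247 CPM. Birc5, Bub1b and Ccnb1, which act in chromosome segregation and entry into mitosis, were at -0.52, -0.80 and -0.90 with unadjusted edgeR p-values of 0.0211, 0.0286 and 0.0350. They were named for the smallest p-values in their list, and none passed the test (edgeR adjusted p = 0.956 each). Of all genes, 1.67% had an unadjusted p below 0.05. All 10 S phase markers were lower too (median -0.65), with summed levels of 519 and 463 CPM in cKO against 519 and 984 CPM in WT, and Mcm3, Mcm6, Mcm4 and Cdc6, which load the replicative helicase or belong to it, were at -0.72, -0.56, -0.78 and -0.83. With WT replicate 4 left out, the median was -0.11 for the mitosis markers, with 10 of 10 lower, and -0.08 for the S phase markers, with 9 of 10 lower. Of all genes, 49.5% were lower in that fit.

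Markers of other cell types differed between libraries as well. Summed levels of 6 intermediate progenitor markers were 402 and 406 CPM in the libraries labelled cKO against 450 and 717 CPM in WT replicates 1 and 4, and all 6 were lower. Of all genes tested, 51.9% were lower. The sums of 10 radial glia markers, of which 9 were lower, were 1612 and 1541 CPM against 1897 and 2005 CPM in WT. Of 8 markers of cortical excitatory neurons 7 were higher, and the sums were 2546 and 3737 CPM against 2843 and 2425 CPM, so that neuron markers of the labelled tissue were present. The 6 genes listed as thalamus and hypothalamus markers were Lhx9, Gbx2, Tcf7l2, Otp, Sim1 and Lhx2. Whether each marks only that tissue was not tested. All 6 were lower, with sums of 256 and 262 CPM against 271 and 432 CPM. Otp and Sim1 were at 0 reads in cKO replicate 2. The sums give most weight to the genes with most reads and hide a difference between libraries. The median over these 6 of log2 CPM, less each gene's mean over the libraries, was -0.12 and -1.43 in cKO against 0.23 and 1.00 in WT. Choroid plexus markers summed to 490 and 52.6 CPM in the libraries labelled cKO against 31.0 and 10.3 CPM in WT, with Slc4a5 at 0 reads in WT replicate 4. In 7 of 7 interneuron markers the fold change was below 0, with sums of 976 and 594 CPM in cKO against 749 and 1199 CPM in WT. Sums were 53.3 and 37.8 CPM in cKO against 39.1 and 40.2 CPM in WT for microglia, 140 and 131 against 135 and 127 CPM for endothelium, 953 and 759 against 967 and 706 CPM for erythroid cells, and 30.5 and 57.3 against 75.0 and 22.4 CPM for meningeal fibroblasts. No other marker of these lists was at 0 reads in any library. Without WT replicate 4 the median log2 fold change was -0.11 for intermediate progenitors (3 of 6 lower), -0.23 for radial glia (10 of 10 lower), 0.15 for excitatory neurons (0 of 8 lower), 0.05 for interneurons (3 of 7 lower), -0.61 for thalamus and hypothalamus (4 of 6 lower) and 2.13 for choroid plexus (0 of 4 lower). In that fit 49.5% of all genes were lower.

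The 10 genes were also set against the marker lists within each library. On log2 CPM centred on each gene's mean over the libraries, the median of the 10 genes was -0.12 and -0.19 in the libraries labelled cKO against -0.12 and 0.43 in WT replicates 1 and 4. The median of the mitosis markers was -0.22 and -0.43 in cKO against -0.19 and 0.80 in WT. The gap of the 10 genes to the mitosis markers (their median less that of the markers) was thus 0.09 and 0.24 in the cKO libraries. It was 0.07 in WT replicate 1 and -0.37 in WT replicate 4. Relative to S phase markers the 10 genes stood at 0.05 and 0.19 in cKO against 0.08 and -0.35 in WT. Centring makes each gene's values balance over the libraries, so a negative gap in WT replicate 4 brings positive ones elsewhere. The gaps do not compare levels in CPM. The gaps to progenitor markers were smaller at their widest, at 0.02 and -0.02 in cKO against -0.21 and 0.21 in WT for radial glia, and at 0.18 and 0.13 in cKO against -0.02 and -0.26 in WT for intermediate progenitors. The gaps to excitatory neuron markers were the widest of these, at -0.01 and -0.50 in cKO against -0.08 and 0.64 in WT. Nde1, Aspm and Stil, at 2.26, 2.10 and 2.08 times WT replicate 1 in WT replicate 4, were near Mki67 at 1.97 and Top2a at 2.18.

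**Figure D4:**
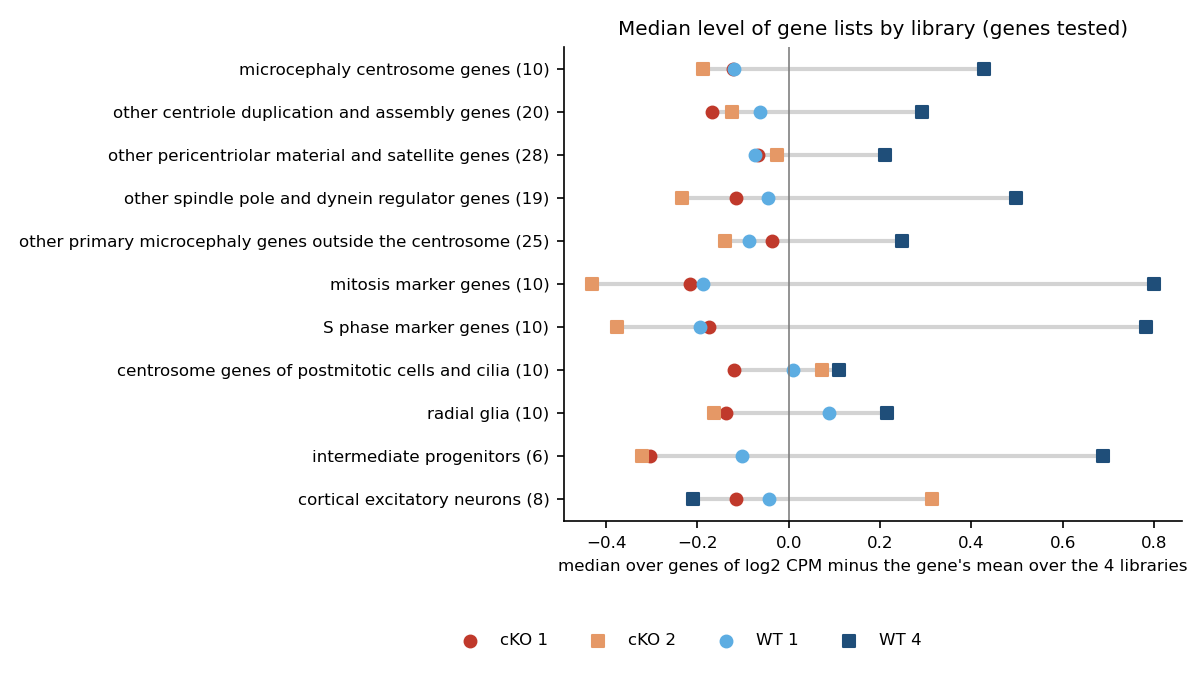
Points give, for each library, the median over a list of log2 CPM minus each gene's mean over the 4 libraries, with the number of genes tested in brackets and a grey line from the lowest to the highest library. WT replicate 4 is the highest point for the 10 microcephaly centrosome genes (0.43) and for mitosis (0.80) and S phase markers, and the lowest for cortical excitatory neurons.

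The genes with the pattern most like the median of the 10, by the smallest distance over the 4 libraries on the same centred scale among 11634 other genes with a mean of at least 5 CPM, were Clint1, Tfdp1, Evc, Piga and Bcl10. Their distances were 0.0196, 0.0218, 0.0224, 0.0225 and 0.0298, whereas the 10 genes themselves lay between 0.163 (Wdr62) and 0.564 (Aspm) from their own median. Tfdp1, the partner that E2F factors bind DNA with, had 81.5 and 76.9 CPM in the libraries labelled cKO against 82.3 and 118 CPM in WT replicates 1 and 4. Clint1, an adaptor of vesicle traffic, had 44.7 and 43.3 CPM against 45.4 and 65.7 CPM in WT. All 5 had log2 fold changes between -0.34 and -0.32, and none passed the test (edgeR adjusted p = 0.956 each).

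On GRCm38, 5 of the 10 genes share exon bases with a neighbouring gene, and no source used here says whether reads were counted by strand. Aspm (chromosome 1, 139454772 to 139494091, plus strand), Stil (chromosome 4, 115000159 to 115043196, plus strand), Cep135 (chromosome 5, 76588698 to 76646466, plus strand), Cep152 (chromosome 2, 125563088 to 125625113, minus strand) and Cenpj (chromosome 14, 56526761 to 56575425, minus strand) share no exon base with another annotated gene. Nde1 (chromosome 16, 14163275 to 14192928, plus strand) shares 77 bases with Marf1 on the other strand, which had 986 and 946 reads in the libraries labelled cKO against 1014 and 1011 in WT. Cep63 (chromosome 9, 102584588 to 102626534, minus strand) shares 239 bases with Anapc13 on the other strand. Wdr62 (chromosome 7, 30240138 to 30280419, minus strand) shares 264 bases with Thap8 and Mcph1 (chromosome 8, 18595131 to 18803189, plus strand) 190 bases with Gm16725, both on the other strand. Cdk5rap2 (chromosome 4, 70216856 to 70410443, minus strand) shares 365 bases with the pseudogene Ywhaq-ps3 on its own strand, which had 47 and 35 reads in cKO against 63 and 73 in WT. Reads in such stretches cannot be assigned to either gene with certainty.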

How the data were processed

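Total RNA was sequenced from 4 cortex libraries. Build mm9 and the tools HTSeq 0.6.0, TopHat2 2.0.12 and Bowtie2 2.2.3 are listed without roles, per the submitters' processing notes, whereas the positions in the tables matched GENCODE M21 on GRCm38 in start and end for 92.1% of 22574 genes. Per the file headers, each of the 2 tables deposited by the authors holds raw read counts per gene, a normalised value (CPM), a fold change (a ratio), its log2 and a p-value with its adjusted p-value, for 1 cKO library against 1 WT library. Only the counts were tested here; the authors' fold values are quoted as theirs.

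Columns were matched to samples by title. Counts were joined in Python 3.11.15 over the 19844 genes in both tables and tested in R 4.3.3 with edgeR 4.0.16 (quasi-likelihood, TMM, two-sided, low genes removed by filterByExpr at a minimum of 10 counts, Benjamini-Hochberg over all 16269 genes at 5% FDR; biological coefficient of variation 0.194, 2 residual degrees of freedom), and the fit was tested on simulated data. Centred values are log2 CPM with a prior count of 2. Exon lengths come from GENCODE M21 and promoters from RefSeq on GRCm38.p6.

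Named genes are the 10 members, H2afv, Mki67, Top2a, up to 4 genes per further list with the smallest unadjusted p, and the 5 genes nearest to the members' median. The members and lists were chosen with earlier results of these data known, so no list was tested as a whole. Alternatives were DESeq2 1.42.0, other size factors and filters, each library left out, a block for the deposited table, genes in 1 table added, and the longest transcript as length.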

Additional observations from a re-analysis of the deposited data

How the results depend on the processing

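The WT libraries decided most values. Leaving out each library in turn, the number of genes past 5% FDR in edgeR ran from 0 to 1849, the number of the 10 genes from 0 to 3, and their median log2 fold change from -0.57 to -0.03. The highest counts came without WT replicate 1 and the median nearest 0 without WT replicate 4 (-0.0292). Without cKO replicate 1 the count was 1, Tagln2, named after its values were seen, with 667 and 7271 reads in the libraries labelled cKO against 603 and 641 in WT. Without WT replicate 4 the log2 fold changes of Cenpj, Wdr62, Stil and Nde1 changed sign, to 0.0135, 0.0266, 0.0305 and 0.0210, against -0.289, -0.384, -1.03 and -1.16 without WT replicate 1. The cause was not tested. Under DESeq2, other size factors, other filters, genes in 1 table added and the deposited table as a block, the median stayed between -0.36 and -0.33, all 10 genes stayed below 0, and 0 genes were called; DESeq2 had 377 genes at an unadjusted p below 0.05 and edgeR 272. Where size factors or filters changed, 5 of the 10 genes had groups that did not overlap, against 15.7% of all genes with cKO lower in the main fit. Such changes scarcely alter the order of libraries within a gene, so this count could hardly have moved. With the longest transcript as length, the mean levels per kb of Cep63 (5.65), Wdr62 (4.34) and Mcph1 (2.02) moved by more than 1 SD over the libraries. The new mean of Wdr62 was still within its range over the libraries with merged exons, 3.25 to 4.38. In that order of means Cep63 and Wdr62 stood above Cenpj (3.82), Cep63 above Wdr62, Aspm (2.30) above Cep152 (2.11) and Mcph1 above Cep135 (1.87). No paired analysis was possible from the replicate numbers because the groups share only 1 of them. The pairing in the deposited tables (cKO replicate 1 with WT replicate 4, cKO replicate 2 with WT replicate 1), fitted as the block above, gave a median of -0.34, with Aspm at -0.74 (edgeR adjusted p = 0.699) and Nde1 at -0.59 (edgeR adjusted p = 0.699). With 2 libraries a group the intervals stay wide, from -1.59 to 0.21 for Nde1.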
